A study of Homo sapiens with 12 samples.

Results

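The genes described here are 10 negative-feedback regulators and transcriptional targets of the ERK pathway: the Sprouty genes SPRY2 and SPRY4, the Sprouty-related genes SPRED1 and SPRED2, the dual-specificity phosphatases DUSP4, DUSP5 and DUSP6, the ETS-family transcription factors ETV4 and ETV5, and the pleckstrin homology-like gene PHLDA1. They were chosen by symbol from 60649 genes, as the rows whose Ensembl identifiers map to these 10 symbols. The choice rested on SPRY4, whose level doubled at the end of a first interferon pulse and kept 25.5% of that rise after the cytokine was withdrawn, so its own values, and every member's values in those 2 comparisons, are given as a description.

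RNA was measured by poly(A) RNA-seq in AC16, an established human line labelled as ventricular cardiomyocyte, in 12 libraries that fall into 4 groups of 3, all of wild-type genotype and all carrying the same batch label. Repeat cells received recombinant human IFN-α2a at 1000 U/mL for 24 h, were held for 4 days and received a second pulse of 24 h. Recovery cells received 1 such pulse and were held without cytokine for 5 days, acute cells were collected at the end of a single pulse of 24 h, and vehicle cells received PBS and are labelled 24 h. The labels place the recovery harvest on day 6 and the repeat harvest on day 7, although the times stated for the repeat regimen add up to 6 days, and they give 2 different culture media. The vehicle labels give 24 h, while the treatment protocol says that vehicle was given over intervals matched to the regimens. Read by the 24 h labels, time in culture and treatment cannot be told apart where vehicle or acute cells are set against recovery or repeat cells. Repeat and recovery cells differ in hold and in labelled harvest day as well as in the second pulse. The labels describe independent biological replicates of 1 cell line.

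ERK is the last kinase of the RAS-RAF-MEK-ERK cascade, which growth factor receptors switch on. Active ERK raises the transcription of genes whose products then dampen the cascade: Sprouty and SPRED proteins act between the receptor and RAF, while the DUSP proteins are phosphatases that remove the activating phosphates from MAP kinases. ETV4 and ETV5 are transcription factors that often accompany growth factor signalling, and this set of transcripts is widely used as a readout of ERK output. Transcript levels do not measure kinase activity.

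Promoter sequences are shown for 3 members whose transcripts moved with the pulses: DUSP6 and SPRY4, which were higher after a pulse, and SPRED1, which was lower. Each is the RefSeq sequence (GRCh38.p14) upstream of an annotated start, 5′ to 3′ on the gene's own strand, with GGAA or its reverse complement TTCC, the core letters that ETS-family factors recognise, in capitals. For SPRY4 the line holds the 80 bases of the window farthest from that start, up to an exon annotated upstream of the start. The SPRY4 line therefore does not adjoin its start, and that start lies inside the annotated span of SPRY4, downstream of the gene's 5′ end. For the other 2 genes the line holds the 250 bases before the start.
DUSP6, chr12:89352502-89352751, minus strand: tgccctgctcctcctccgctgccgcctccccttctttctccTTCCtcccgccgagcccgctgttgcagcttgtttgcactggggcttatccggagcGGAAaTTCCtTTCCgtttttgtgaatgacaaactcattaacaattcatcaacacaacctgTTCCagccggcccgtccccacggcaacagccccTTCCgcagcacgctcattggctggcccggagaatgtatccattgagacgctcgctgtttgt
SPRY4, chr5:142324418-142324497, minus strand: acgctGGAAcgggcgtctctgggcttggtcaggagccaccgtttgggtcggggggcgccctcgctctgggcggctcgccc
SPRED1, chr15:38252586-38252835, plus strand: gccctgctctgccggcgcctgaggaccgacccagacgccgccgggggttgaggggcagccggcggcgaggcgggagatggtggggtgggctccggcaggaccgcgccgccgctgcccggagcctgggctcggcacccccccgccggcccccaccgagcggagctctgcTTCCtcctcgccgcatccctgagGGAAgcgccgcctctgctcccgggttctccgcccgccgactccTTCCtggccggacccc

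In the full window of 250 bases before the start, DUSP6 had 6 of these cores, a number that 9.14% of 35116 RefSeq promoter windows reached or passed. SPRED1 had 3 cores and SPRY4 had 2, against a median of 3.0 over all windows. The windows of SPRY2 had 3, 4 and 4 cores, those of SPRED2 had 4 and 5, and that of PHLDA1 had 4. DUSP6 thus had the highest number among the members' windows, and its share is that of a maximum. SPRED2, with 5 cores in 1 window, was lower in repeat than in recovery cells. Of the 10 members, 6 had a window in the table, and 0 of these 6 held any of 6 longer motifs searched on both strands. Those were the interferon-stimulated response element GAAANNGAAA, present in 3.02% of all windows, the gamma-activated site TTCNNNGAA, in 6.57%, the extended ETS motif CCGGAAG, in 8.52%, the cAMP response element TGACGTCA, in 1.65%, the AP-1 motif TGANTCA, in 6.57%, and the CArG box, in 1.16%. CCGGAAG contains the core GGAA. A match is letters in a window and not a bound site, and the absence of a match concerns these windows alone.

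In GRCh38, with GENCODE annotation, SPRY2 lies on the minus strand of chromosome 13 at 80335976 to 80341126 and SPRY4 on the minus strand of chromosome 5 at 142310427 to 142326455. SPRED1 spans 38252836 to 38357249 of chromosome 15 (plus strand), and SPRED2 spans 65310851 to 65432637 of chromosome 2 (minus strand). DUSP4 lies on the minus strand of chromosome 8 at 29333064 to 29350684, DUSP5 at 110497907 to 110511533 of chromosome 10 (plus strand) and DUSP6 on the minus strand of chromosome 12 at 89347235 to 89352501. ETV4 lies on the minus strand of chromosome 17 at 43527844 to 43579620, ETV5 on the minus strand of chromosome 3 at 186046314 to 186110318 and PHLDA1 on the minus strand of chromosome 12 at 76025447 to 76031776. DHX8, an RNA helicase gene on the opposite strand, overlaps the annotated span of ETV4 and carried 3279 to 4777 counts per library, more than ETV4 itself, and the strand setting of the counting is not given in the sources used here. Reads of the 2 genes can therefore not be told apart with certainty in the ETV4 values. The other overlapping genes carried little: SPRY4-AS1, antisense to SPRY4, held 2.49% as many counts as SPRY4, and DGKG, on the same strand as ETV5, held 3.92% as many counts as ETV5.

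The libraries held 39.9 to 62.3 M counts (1 M is 1000000), and all 10 members passed the filter on low counts that left 18119 genes. The line's label was checked against cell type markers: 3 of 15 cardiomyocyte markers passed the filter, TNNI1 and MYL7 had no count in any library, and the summed level of the 15 was 15.7 to 20.0 counts per 1000000 (CPM, scaled by TMM) over all libraries. Most of that sum was GATA4, at group means of 12.9 to 16.6 CPM. The cardiomyocyte label was thus not borne out by most of these markers, and the cells are called AC16 here. All 10 fibroblast markers passed, with a summed level of 12502 to 12841 CPM in repeat libraries and 13076 to 13208 CPM in recovery libraries. In repeat cells 7 of them were called lower and 1 higher than in recovery cells. Of all genes tested, 20.5% were called lower and 21.1% higher there. VIM, the higher one, was the largest part of that sum, with means of 7379 CPM in repeat and 6564 CPM in recovery cells. COL1A1, among the lower ones, averaged 3188 CPM in repeat and 4177 CPM in recovery cells. The macrophage list summed to 236 to 247 CPM in repeat libraries and 115 to 125 CPM in recovery libraries, mostly through CD68, the single member of that list that was called there, and no marker of either list was without a count. The smooth muscle list summed to 269 to 274 CPM in repeat libraries and 223 to 229 CPM in recovery libraries, with 1 of its 4 markers, TAGLN, called higher. The part of these shifts in the results below was not tested. The treatment itself was visible in interferon-stimulated genes: repeat cells were higher than recovery cells by 7.97 for IFI44L, 6.71 for MX1 and 5.77 for OAS2 on the log2 scale (edgeR adjusted p = 7.97e-35, 1.13e-13 and 1.8e-38). In bulk RNA, fewer cells with a transcript and less transcript per cell cannot be told apart.

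After the second pulse, 6 of the 9 members other than SPRY4 were higher and 2 lower than in recovery cells. SPRY2, DUSP4, DUSP5, DUSP6, ETV5 and PHLDA1 were higher in repeat than in recovery cells, by 0.10 to 0.41 on the log2 scale, and SPRED1 and SPRED2 were lower, by −0.21 and −0.15. ETV4 did not pass the test. Called here means an adjusted p under 0.05 in edgeR's quasi-likelihood test, adjusted by Benjamini-Hochberg over 18119 genes. The count of 8 of 9 stands beside 41.6% of all genes tested, 21.1% called higher and 20.5% called lower. Repeat and recovery libraries did not overlap for 8 of the 9 members, against 49.4% of all genes. The median log2 fold change of the 9 members was 0.21, while over all genes the median was −0.00034 and the median absolute value 0.166. The stated reason for the choice used the recovery libraries, through SPRY4, and no repeat library. The members were, however, chosen with earlier results of these data known. The choice can therefore not be called independent of the repeat libraries.

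**Figure D1:**
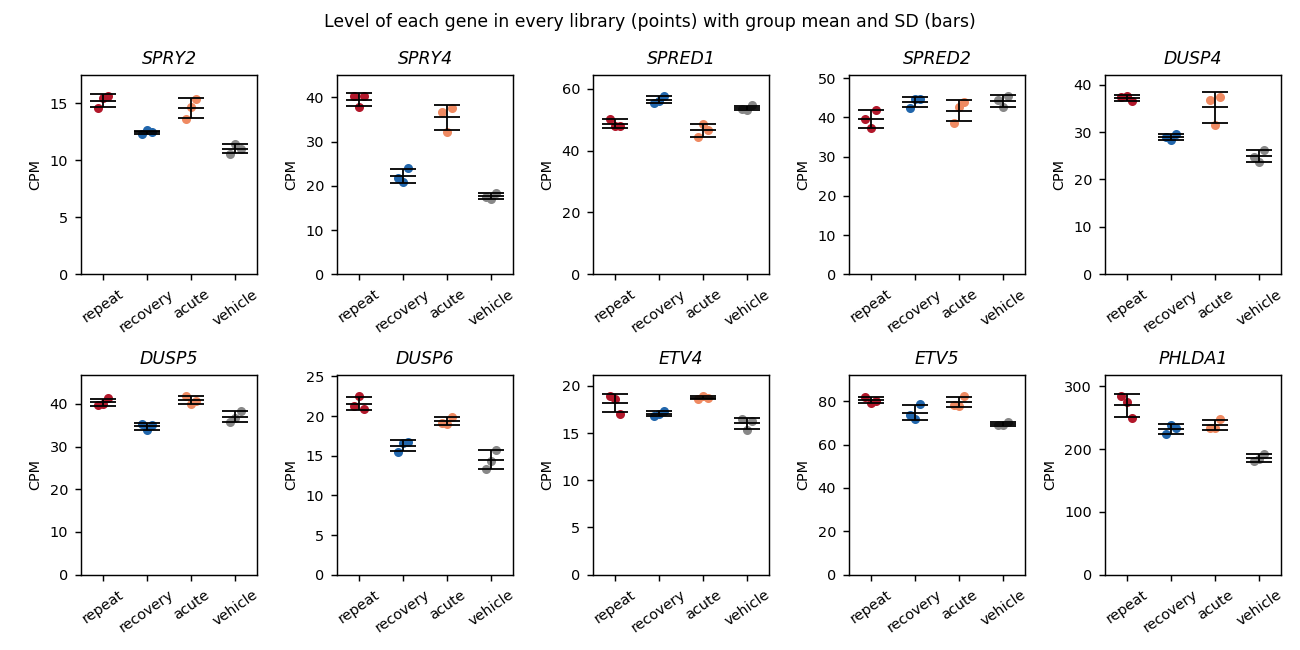
Level of each of the 10 genes in CPM on a linear axis from 0, for repeat, recovery, acute and vehicle libraries. Points are libraries, and bars are the group mean and its SD over 3 libraries; SPRY4 lies at 37.8 to 40.3 CPM in repeat libraries and at 17.1 to 18.4 CPM in vehicle libraries, while SPRED1 runs the other way between repeat and recovery.

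SPRY4, a membrane-associated inhibitor of receptor-to-RAS signalling, had the largest fold difference of the 10 between repeat and recovery cells. Its level was 40.3, 37.8 and 40.3 CPM in repeat libraries, 21.7, 21.0 and 24.1 CPM in recovery libraries, 36.7, 32.3 and 37.6 CPM in acute libraries, and 17.5, 17.1 and 18.4 CPM in vehicle libraries. Repeat and acute libraries all lay above every recovery library, and recovery libraries above every vehicle library. As log2 fold changes with their SE, repeat cells stood 0.83 ± 0.056 above recovery cells and 1.16 ± 0.057 above vehicle cells. Acute cells stood 1.01 ± 0.059 above vehicle cells, a 2.01-fold difference, and recovery cells 0.33 ± 0.062 above vehicle cells. On the CPM scale the recovery mean kept 25.5% of the first-pulse rise, and on the log2 scale 32.9%. These values include the ones that led to the choice of this gene, and no test is attached to them.

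SPRY2, the second Sprouty inhibitor, moved the same way over a narrower range. It was measured at 14.5, 15.4 and 15.6 CPM in repeat libraries, 12.3, 12.6 and 12.4 CPM in recovery libraries, 13.6, 14.7 and 15.3 CPM in acute libraries, and 10.6, 11.4 and 11.0 CPM in vehicle libraries. The 4 groups were separate except for repeat and acute, which overlapped. Repeat cells were higher than recovery cells by 0.29 ± 0.054 (log2 ± SE, edgeR adjusted p = 8.07e-05).

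Transcripts of the SPRED genes, whose products hold back the activation of RAF, went in the other direction. SPRED1 stood at 50.2, 47.8 and 47.9 CPM in repeat libraries, 55.4, 56.1 and 57.6 CPM in recovery libraries, 44.3, 48.6 and 46.6 CPM in acute libraries, and 53.4, 53.2 and 54.6 CPM in vehicle libraries. Every library taken at the end of a pulse was below every library that was not. The repeat-minus-recovery difference was −0.21 ± 0.034 on the log2 scale (edgeR adjusted p = 6.48e-06).

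SPRED2 showed the same direction with a smaller distance, at 39.7, 37.3 and 41.8 CPM in repeat libraries, 42.4, 44.8 and 44.6 CPM in recovery libraries, 38.6, 42.6 and 43.9 CPM in acute libraries, and 44.3, 42.6 and 45.4 CPM in vehicle libraries. Repeat libraries lay just below recovery libraries, while acute libraries overlapped all 3 other groups. The difference was −0.15 ± 0.046 (edgeR adjusted p = 0.0112). It no longer passed without recovery replicate 2 (adjusted p = 0.0522) or without repeat replicate 2 (adjusted p = 0.0702).

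Of the phosphatases, DUSP6, a cytoplasmic phosphatase specific for ERK, had the largest tested change. It read 21.3, 22.5 and 20.9 CPM in repeat libraries, 15.5, 16.6 and 16.7 CPM in recovery libraries, 19.2, 19.0 and 19.9 CPM in acute libraries, and 13.4, 14.4 and 15.7 CPM in vehicle libraries. Repeat libraries were above all others, and recovery libraries overlapped vehicle libraries. Repeat cells exceeded recovery cells by 0.41 ± 0.053 (edgeR adjusted p = 2.92e-07).

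DUSP4, a nuclear phosphatase of MAP kinases, came next. Its levels were 37.4, 37.6 and 36.4 CPM in repeat libraries, 29.0, 28.2 and 29.6 CPM in recovery libraries, 36.7, 31.5 and 37.4 CPM in acute libraries, and 24.6, 23.8 and 26.3 CPM in vehicle libraries. Acute replicate 2 was the low one of its group for both DUSP4 and SPRY4, and was still above every recovery library. Repeat cells were above recovery cells for DUSP4 by 0.36 ± 0.050 (edgeR adjusted p = 3.27e-06). In recovery cells 39.6% of its first-pulse rise was left on the CPM scale.

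DUSP5, a nuclear phosphatase specific for ERK, was higher as well, by 0.21 ± 0.036 (edgeR adjusted p = 1.4e-05). It stood at 39.7, 39.9 and 41.4 CPM in repeat libraries, 35.2, 33.9 and 35.1 CPM in recovery libraries, 41.8, 40.0 and 40.7 CPM in acute libraries, and 35.7, 36.8 and 38.3 CPM in vehicle libraries. Repeat and acute libraries overlapped and lay above the rest, and all recovery libraries lay below all vehicle libraries.

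The transcription factor genes had the smallest second-pulse differences on the count scale. ETV5 was at 81.9, 79.0 and 80.3 CPM in repeat libraries, 73.9, 72.0 and 78.5 CPM in recovery libraries, 78.4, 77.9 and 82.3 CPM in acute libraries, and 68.9, 69.1 and 70.3 CPM in vehicle libraries. Repeat libraries cleared recovery libraries by a small margin, and the difference of 0.10 ± 0.030 passed (edgeR adjusted p = 0.00676), but not without recovery replicate 2 (adjusted p = 0.07).

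ETV4 had 18.9, 18.6 and 17.1 CPM in repeat libraries, 16.9, 17.1 and 17.3 CPM in recovery libraries, 18.6, 18.9 and 18.7 CPM in acute libraries, and 16.5, 15.3 and 16.3 CPM in vehicle libraries. Repeat replicate 3 lay among the recovery libraries, and the difference of 0.09 ± 0.048 did not pass (95% interval −0.0060 to 0.19, edgeR adjusted p = 0.13). Without repeat replicate 3 it did (adjusted p = 0.0349).

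PHLDA1, a growth factor-inducible gene whose product binds phosphoinositides, had the highest CPM of the 10. Its level was 284, 274 and 250 CPM in repeat libraries, 223, 238 and 234 CPM in recovery libraries, 234, 234 and 247 CPM in acute libraries, and 181, 185 and 193 CPM in vehicle libraries. Recovery and acute libraries overlapped, and both lay above all vehicle libraries. Repeat cells were higher than recovery cells by 0.22 ± 0.048 (edgeR adjusted p = 0.0039).

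Ordered per length, by the mean of the deposited TPM over all libraries, ETV5 was highest at 110 TPM, followed by PHLDA1 at 31.3 TPM, DUSP5 at 11.8 TPM, SPRED1 at 11.8 TPM, SPRED2 at 10.8 TPM, DUSP6 at 10.6 TPM, ETV4 at 7.97 TPM, SPRY4 at 4.87 TPM, SPRY2 at 4.57 TPM and DUSP4 at 4.00 TPM. The place of ETV5 is the least certain in size, since its TPM ran over libraries from 67.1 to 134 while its CPM ran from 68.9 to 82.3. The ratio of counts to TPM, which stands for the transcript length used, varied between libraries with a coefficient of variation of 17.8% for ETV5, 8.55% for SPRED2 and 8.48% for ETV4, against a median of 4.48% over 9690 well-covered genes. It was 0.547% for PHLDA1, 0.906% for SPRY2 and 1.54% for DUSP4.

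Tested on log2(TPM + 1) with limma, 5 of the 9 members passed between repeat and recovery cells in place of 8. The calls over all genes fell as well on that scale, to 3824 of 18119 in place of 7546. SPRY2, SPRED1, DUSP4, DUSP6 and PHLDA1 kept their calls. SPRED2, DUSP5 and ETV5 did not pass on that scale, with adjusted p of 0.61, 0.165 and 0.61. The direction of all 10 was the same in both tables, and on the TPM scale the difference was 0.65 ± 0.075 for SPRY4 and 0.36 ± 0.084 for DUSP6.

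**Figure D2:**
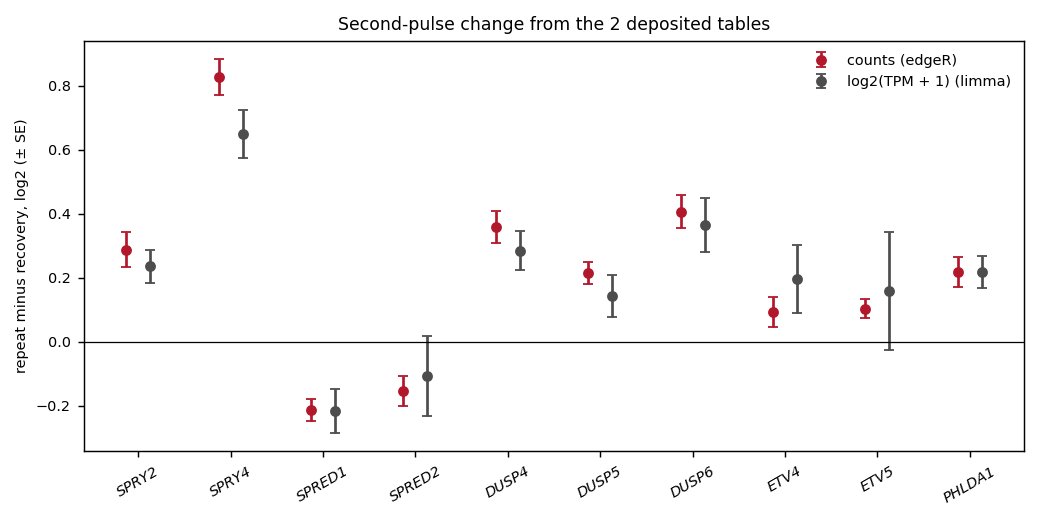
Repeat-minus-recovery difference of each gene on the log2 scale, with its SE, from the deposited counts (edgeR, 12 libraries) and from log2 of the deposited TPM + 1 (limma, 12 libraries). Signs are the same in both tables, and the TPM bars are widest for ETV5 (SE 0.18) and SPRED2 (SE 0.12).

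Set against vehicle cells, repeat cells differed in 9 of the 9 tested members, 7 higher and 2 lower, beside 46.3% of all genes, 23.4% higher and 22.9% lower. DUSP6 and DUSP4 were both higher by 0.58 (edgeR adjusted p = 3.93e-10 and 2.26e-09) and PHLDA1 by 0.54 (4.99e-06). SPRY2 was higher by 0.47 (4.11e-08), ETV5 by 0.21 (1.29e-06), ETV4 by 0.18 (0.00253) and DUSP5 by 0.13 (0.00368). SPRED2 was lower, at −0.16 (0.00705), as was SPRED1, at −0.14 (0.000815). On the TPM scale 4 of the 9 passed, namely SPRY2, DUSP4, DUSP6 and PHLDA1. Of all 18119 genes, 4651 passed on that scale, in place of 8391. Time in culture as labelled differs between these 2 groups, and the vehicle libraries also entered the choice of the members, through SPRY4.

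The first pulse gives the comparison that led to the choice of the members, so its values are a description. Besides SPRY4, acute cells stood above vehicle cells by 0.50 ± 0.052 for DUSP4, 0.42 ± 0.055 for DUSP6, 0.40 ± 0.057 for SPRY2 and 0.36 ± 0.049 for PHLDA1. Smaller differences were 0.22 ± 0.049 for ETV4, 0.20 ± 0.031 for ETV5 and 0.15 ± 0.036 for DUSP5. SPRED1 stood at −0.21 ± 0.034 and SPRED2 at −0.09 ± 0.047. Over all genes 43.8% were called, 22.3% higher and 21.5% lower, and no test is attached to the members here.

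After withdrawal, recovery cells were within 0.33 of vehicle cells for all 10 members on the log2 scale. Apart from SPRY4, the largest distances were PHLDA1 at 0.32 ± 0.049, DUSP4 at 0.22 ± 0.053 and SPRY2 at 0.18 ± 0.058, while DUSP5 stood at −0.09 ± 0.036 and SPRED2 at −0.01 ± 0.046. No test is attached to the members here, and 5.94% of all genes were called, 3.03% higher and 2.91% lower. Over all genes that is 1076 calls, and 624 to 1167 with 1 library left out, lowest without vehicle replicate 1. Against acute cells, recovery cells stood at −0.68 ± 0.057 for SPRY4, −0.28 ± 0.051 for DUSP4, 0.28 ± 0.034 for SPRED1 and −0.04 ± 0.048 for PHLDA1. PHLDA1 was thus nearer to its acute than to its vehicle level after 5 days of hold. Between recovery and acute cells 41.1% of all genes were called, 20.7% lower and 20.4% higher, again with no test attached to the members. Both comparisons share libraries with the first-pulse one.

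The ends of the 2 pulses were then compared directly. Between repeat and acute cells 0 of the 9 tested members passed by edgeR (2 at an unadjusted p under 0.05), beside 4.2% of all genes. That background of 761 genes was 337 to 1218 genes with 1 library left out, lowest without acute replicate 3 and highest without repeat replicate 1, and 6 to 9 genes on the TPM scale and with a length offset. DESeq2 called 1 member and limma-voom 0. PHLDA1 came closest, with a repeat-minus-acute log2 difference of 0.18 (95% interval 0.072 to 0.28, edgeR adjusted p = 0.0726), and repeat libraries did not overlap acute libraries. DESeq2 called it (adjusted p = 0.000699), and edgeR called it without repeat replicate 3 (adjusted p = 0.000571) and with no filter on low counts (adjusted p = 2.56e-07). DUSP6 was 0.16 higher (95% interval 0.051 to 0.26, edgeR adjusted p = 0.0851), again with no overlap, and was called with no filter on low counts (adjusted p = 0.0319). Groups did not overlap for 20.3% of all genes. For the other 7 tested members the intervals lay between −0.17 and 0.18, so that larger differences in either direction fell outside them. SPRY4 stood 0.15 ± 0.053 higher in repeat than in acute cells.

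The response to the second pulse was compared with that to the first as the difference of both differences, repeat minus recovery less acute minus vehicle. By edgeR 0 of the 9 members passed (1 at an unadjusted p under 0.05, 0 by DESeq2 and 0 by limma-voom), beside 0.651% of all genes (118 genes as reported, with 1 library left out 56 to 323, lowest without acute replicate 3 and highest without repeat replicate 1). The estimates were −0.14 ± 0.072 for DUSP4 (edgeR adjusted p = 0.495), −0.14 ± 0.068 for PHLDA1 (0.518), −0.13 ± 0.068 for ETV4 (0.512), −0.12 ± 0.079 for SPRY2 (0.661) and −0.09 ± 0.043 for ETV5 (0.444). SPRED2 was at −0.07 ± 0.066 (0.799), DUSP6 at −0.017 ± 0.076 (0.971), SPRED1 at −0.0015 ± 0.048 (0.997) and DUSP5 at 0.07 ± 0.050 (0.699). The estimate for SPRY4 was −0.18 ± 0.081. This comparison contains the first-pulse one, and a p above the threshold does not show that both responses were equal.

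**Figure D3:**
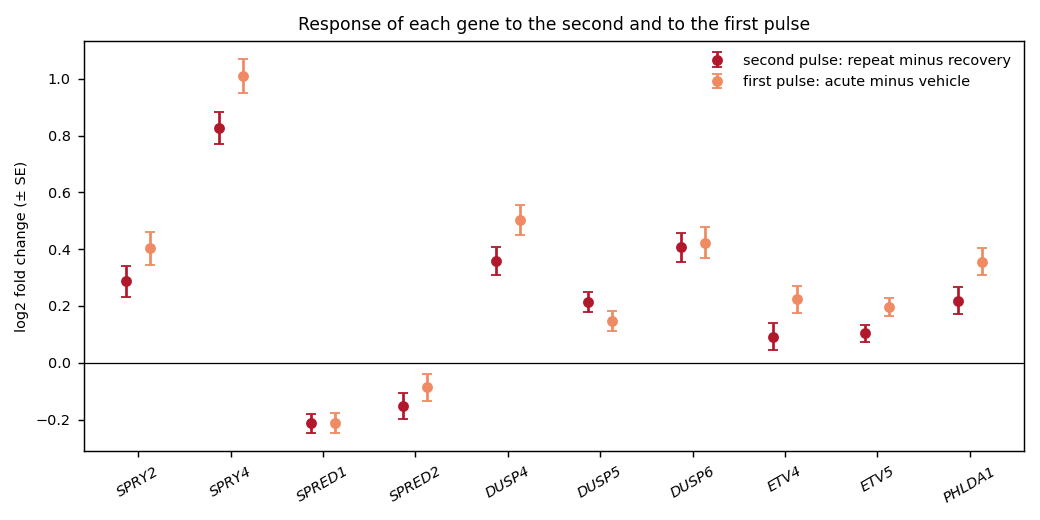
Log2 fold change with its SE for each gene in the second pulse (repeat minus recovery) and in the first pulse (acute minus vehicle), each group with 3 libraries. SPRY4 leads in both (0.83 and 1.01), and SPRED1 has −0.21 in each.

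Other genes of the pathway were read from lists of relatives, targets, core components, receptors and ligands. Between repeat and recovery cells 41.6% of all genes were called, with a median absolute change of 0.166. Of 12 measured relatives of the members, 4 were higher and 1 lower, with a median of 0.00. The stress- and growth factor-induced phosphatase DUSP1 was higher by 0.68 ± 0.031 (edgeR adjusted p = 1.58e-16), with means of 92.6 ± 2.13 CPM in repeat cells and 57.7 ± 1.47 CPM in recovery cells (SD, n = 3 each). DUSP10, a phosphatase of the stress kinases p38 and JNK, was higher by 0.62 ± 0.043 (1.46e-12). SPRED3 was higher, by 0.31 ± 0.075 (0.00118), though not on the TPM scale. Outside the rule for naming, and named after their values were seen, DUSP2 was higher by 0.58 ± 0.122 (0.000268) and SPRY1 lower by −0.67 ± 0.242 (0.0262). Both were scarce: DUSP2 averaged 2.95 CPM in repeat and 1.97 CPM in recovery cells. SPRY1 averaged 0.549 CPM in repeat and 0.879 CPM in recovery cells, with 22 to 62 counts per library. On the TPM scale neither passed (adjusted p = 0.0993 for DUSP2 and 0.146 for SPRY1). SPRY1 also did not pass by DESeq2 (0.0853), or without recovery replicate 2 (0.108), recovery replicate 3 (0.0764), repeat replicate 2 (0.0546) or repeat replicate 3 (0.0972).

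Among 20 other ERK-responsive genes, 12 were higher and 1 lower, with a median of 0.27. CCND1, which encodes cyclin D1, was higher by 0.60 ± 0.037 (edgeR adjusted p = 1.4e-08), the receptor tyrosine kinase gene EPHA2 by 0.60 ± 0.024 (5.03e-18), and the chromatin protein gene HMGA2 by 0.48 ± 0.057 (0.000107). CCND1 averaged 512 ± 4.64 CPM in repeat cells, 337 ± 10.8 CPM in recovery cells, 469 ± 13.6 CPM in acute cells and 266 ± 15.5 CPM in vehicle cells. The list did not move as one: FOS, an immediate-early gene and the 1 member that was lower, stood at −0.67 ± 0.210 (0.0104), and it is named here after its value was seen. FOS was scarce, with means of 0.846 CPM in repeat and 1.36 CPM in recovery cells, and 36 to 119 counts per library. FOS did not pass without recovery replicate 2 (0.0954) or repeat replicate 1 (0.0687), nor on the TPM scale (0.825).

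The ligands had 6 higher and 1 lower of 12 measured, with a median of 0.44. That median includes scarce ligands. With a filter at a mean of at least 50 counts, 6 ligands were left, 5 higher and 1 lower. HBEGF, an EGF-receptor ligand, was at 39.4, 41.3 and 38.2 CPM in repeat libraries, 21.9, 21.7 and 22.3 CPM in recovery libraries, 44.0, 41.2 and 42.9 CPM in acute libraries, and 23.5, 22.7 and 24.0 CPM in vehicle libraries. Its second-pulse change of 0.85 ± 0.040 (edgeR adjusted p = 3.54e-16) stood beside 0.83 for SPRY4, and its recovery libraries lay below its vehicle libraries, where those of SPRY4 lay above. FGF5 was higher by 0.58 ± 0.031 (3.7e-13) and NRG1 by 0.38 ± 0.032 (1.94e-10), while VEGFA was lower by −0.12 ± 0.035 (0.00572), a call lost on the TPM scale. BTC, named after its value was seen, had the largest fold of the list at 0.372 to 0.474 CPM in repeat libraries and at most 0.0866 CPM in recovery libraries.

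Of 29 core genes of the cascade itself, 17 were lower and 4 higher, with a median of −0.14. RPS6KA3, a kinase activated by ERK, changed by −0.50 ± 0.032 (edgeR adjusted p = 5.15e-13), against −0.14 ± 0.049 on the TPM scale (limma adjusted p = 0.0717). Lower too were the docking protein gene GAB1 by −0.41 ± 0.066 (1.01e-05) and PTPN11, which encodes the phosphatase SHP2, by −0.40 ± 0.021 (9.01e-15). PTPN11 averaged 299 ± 8.54 CPM in repeat cells and 393 ± 4.19 CPM in recovery cells. The higher ones were changed little, with 0.17 ± 0.050 for RASA2, a GTPase-activating protein gene (0.00792), 0.17 ± 0.025 for ETS2 (4.26e-06) and 0.09 ± 0.032 for the RAF-family gene ARAF (0.0206). RASA2 had the opposite sign on the TPM scale, at −0.028, and did not pass without repeat replicate 1 (adjusted p = 0.0649). ARAF did not pass without recovery replicate 2 (0.0792), recovery replicate 3 (0.140) or repeat replicate 1 (0.113). It also did not pass by DESeq2 (0.0569) or with upper quartile scaling (0.0961). The fourth, PEA15, a scaffold that binds ERK, was named after its value of 0.06 ± 0.019 was seen (0.0187). PEA15 stood at −0.0029 on the TPM scale, and did not pass with upper quartile scaling (0.203), or without recovery replicate 1 (0.0890) or repeat replicate 1 (0.0593). It also did not pass with no filter on low counts (0.0564) or with 2 groups only in the fit (0.0509).

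Of 10 measured receptors, 2 were higher and 4 lower, with a median of −0.11. The hepatocyte growth factor receptor gene MET was higher by 0.29 ± 0.022 (edgeR adjusted p = 8.87e-12) and ERBB2 by 0.15 ± 0.031 (0.00022). ERBB3 was lower by −0.93 ± 0.090 (1.06e-06), with 9.29 ± 0.848 CPM in repeat cells and 17.6 ± 1.14 CPM in recovery cells. FGFRL1 was lower by −0.18 ± 0.023 (1.82e-07) and FGFR1 by −0.15 ± 0.022 (3.19e-06). AXL, named after its value was seen, was lower by −0.07 ± 0.021 (0.0106), but did not pass with no filter on low counts (0.0547). On the TPM scale the calls were 2 higher and 0 lower for relatives, 11 and 0 for responsive genes, 6 and 0 for ligands, 1 and 10 for the core, and 1 and 2 for receptors. Of all 18119 genes, 2199 were higher and 1625 lower on that scale. Calls of ARAF, PEA15, ERBB2, FGFR1 and AXL were lost there.

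**Figure D4:**
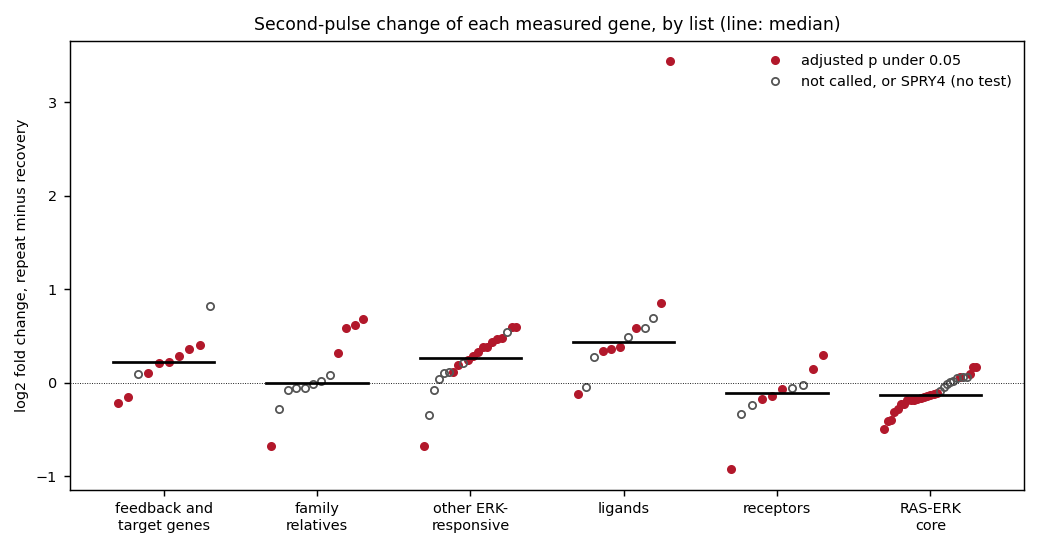
Repeat-minus-recovery log2 fold change of every measured gene of 6 lists. Filled points have an adjusted p under 0.05, and open points do not or are SPRY4, which has no test. The line is the list's median, from 0.44 for ligands, which include scarce transcripts, to −0.14 for the RAS-ERK core. The isolated ligand point near the top is BTC.

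The members' patterns over the 12 libraries were also set side by side, as a description. SPRY4 and DUSP4 had a Pearson r of 0.98 on log2 CPM, and SPRY4 and DUSP6 of 0.96. SPRED1 had an r of −0.79 with SPRY4, −0.92 with DUSP5 and 0.66 with SPRED2. The 12 points share 4 conditions and 1 cell line. The genes whose centred profile was nearest to that of SPRY4 were VEGFC, JAG1, PLA2G4A, KCNQ5 and STEAP1, with root mean squared differences from 0.071 to 0.090 on the log2 scale over 12 libraries. VEGFC, a lymphatic growth factor gene, averaged 99.8 CPM in repeat cells, 57.7 CPM in recovery cells, 93.8 CPM in acute cells and 49.5 CPM in vehicle cells. Nearest to DUSP6 were TRPV2, NHERF2, SLC20A1, FSCN1 and BRI3, with root mean squared differences from 0.051 to 0.058.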

How the data were processed

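Poly(A) RNA of 12 AC16 libraries was sequenced from strand-specific libraries as single-end reads, per the labels' protocols. The submitters' processing notes name Trim Galore 0.6.10, cutadapt 4.3, STAR 2.7.11a, featureCounts 2.0.3, Picard 2.27.5, edgeR and GRCh38.p13, and the series' design text names GENCODE 41 and DESeq2. The authors deposited a table of estimated counts per gene, of which 25.49% of the nonzero values are not whole, and a table of TPM that sums to 1000000 per library. How the fractional counts arose, the counting strand and the lengths behind TPM are not stated in these sources, so depth and gene length can both enter the TPM values.

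Counts were rounded to whole numbers. Identifiers were matched to GENCODE 44 (60507 of 60649) for symbols and positions. edgeR 4.0.16 in R 4.3.3 was run on all 12 libraries in 1 fit of 4 group means, with filterByExpr by group, TMM scaling and a robust quasi-likelihood F test (two-sided, Benjamini-Hochberg over 18119 genes, 0.05). SE is the absolute log2 fold change divided by the square root of F. The common coefficient of biological variation was 2.67%. Replicates differed by 1.77 to 2.98 times the sampling noise in median squared difference. That cannot tell separate cultures from parallel preparations of 1 culture. Each library was counted as a sample of its own because the labels describe independent biological replicates. The p-values measure the spread between these libraries only. Libraries of 39.9 to 62.3 M counts gave the least abundant member 503 counts or more. limma 3.58.1 was used on log2(TPM + 1), and DESeq2 1.42.0, voom, other scalings, filters, pseudocounts, a length offset, a replicate block and leaving out each library were alternatives. The script was tested on simulated data.

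The members and the gene lists were chosen with earlier results of these data known. The genes named from each list are up to 3 per direction with the largest change among those called between repeat and recovery cells, without overlap and with at least 5 CPM in 1 of these groups. Share of rise left is given for members with a first-pulse log2 fold change of at least 0.5 in size. The nearest genes are the 5 with the smallest root mean squared difference of centred log2 CPM (prior count 2). Marking GGAA in the promoters was decided after the search for longer motifs.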

Additional observations from a re-analysis of the deposited data

Results flagged for a closer look

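Groups of 3 libraries are too small to test for a library that stands apart. The genes looked at were the members and the list genes named by the fixed rule. Of these, 5 differed between the second-pulse and the first-pulse response by a test of that difference (edgeR, adjusted over 18119 genes). None of the 9 tested members did. Cell type markers and genes named after their values were seen were not part of this search. The values are second minus first, on the log2 scale with SE.

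EPHA2 rose in both pulses and less in the second, by −0.14 ± 0.034 (adjusted p = 0.0467), with responses of 0.60 in the second and 0.74 in the first pulse. It passed in 2 of 12 fits without 1 library, and not with upper quartile scaling (0.0575). PTPN11 fell in both and less in the second, a difference of 0.13 ± 0.030 (adjusted p = 0.0467), with responses of −0.40 and −0.52. It passed in 2 of 12 fits without 1 library, and not with RLE scaling (0.0501). VEGFA fell less in the second pulse by 0.21 ± 0.049 (adjusted p = 0.0413), with responses of −0.12 and −0.33. It passed in 4 of 12 fits without 1 library. On log2 TPM with a pseudocount of 1 none of these 3 differences passed (adjusted p = 0.831 for EPHA2, 0.734 for PTPN11 and 0.589 for VEGFA). Of the interferon-stimulated genes, MX1 had a difference of −1.02 ± 0.145 (adjusted p = 0.0158) and OAS2 of −1.77 ± 0.065 (adjusted p = 1.4e-16). MX1 did not pass without recovery replicate 1 (0.0645) or recovery replicate 3 (0.0621), nor on log2 TPM (0.248), and OAS2 passed under every alternative run. Both ended the second pulse near their acute level, with 802 CPM in repeat and 772 CPM in acute cells for MX1 and 625 CPM in repeat and 587 CPM in acute cells for OAS2, and their recovery levels were above vehicle, with 7.68 CPM in recovery and 3.55 CPM in vehicle cells for MX1 and 11.4 CPM in recovery and 3.15 CPM in vehicle cells for OAS2.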

How the results depend on the processing

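The directions of the called second-pulse changes of the members were the same under every alternative run. The scales that bring in gene length moved the counts most: on log2 TPM with a pseudocount of 1, with a pseudocount of 0.1, and with a gene length offset on the counts, in that order, calls over all genes were 3824, 3830 and 3958 for repeat against recovery (7546 as reported), 4651, 4667 and 4827 for repeat against vehicle (8391), 4344, 4329 and 4438 for acute against vehicle (7938), 3836, 3843 and 3982 for recovery against acute (7448), 118, 125 and 184 for recovery against vehicle (1076), 6, 9 and 8 for repeat against acute (761) and 3, 5 and 14 for the difference between the pulses (118). Members called were 5, 5 and 5 for repeat against recovery (8) and 4, 4 and 4 for repeat against vehicle (9). The TPM alternatives change the table and the test (limma) together, the offset keeps the counts and edgeR, and the cause was not tested. Fitting 2 groups only gave 506 calls for repeat against acute, and the difference between the pulses, which needs all 4 groups, was not run that way. It had 232 calls by DESeq2 and 333 with no filter.

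Leaving out each library in turn gave 6795 to 7525 calls for repeat against recovery, 7455 to 8403 for repeat against vehicle, 7020 to 8055 for acute against vehicle, 6619 to 7587 for recovery against acute, 624 to 1167 for recovery against vehicle, 337 to 1218 for repeat against acute and 56 to 323 for the difference between the pulses. The extremes of the last 2 came without repeat replicate 1 (1218 and 323) and without acute replicate 3 (337 and 56). Members called ranged from 6 to 9 for repeat against recovery and stayed at 9 for repeat against vehicle.

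Among the alternatives run, the sign changed for values near 0 that were not called, and for RASA2 and PEA15. SPRED1 was at −0.010 and −0.011 between repeat and acute cells on log2 TPM, and its difference between the pulses was 0.0015 with upper quartile scaling, 0.0012 by voom, 0.0070 with no filter and −0.039 to 0.032 without single libraries. For DUSP5 that difference was −0.014, −0.014 and −0.0097 on the 3 length-aware scales, and for DUSP6 it was −0.078 to 0.042 without single libraries. RASA2 between repeat and recovery cells was at −0.028, −0.034 and −0.039 on the length-aware scales, and PEA15 at −0.0029, −0.0030 and −0.0052. Upper quartile scaling gave 3312 higher and 4243 lower calls between repeat and recovery cells.

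Correlations between deviations of same-numbered libraries were small and of both signs (r from −0.082 to 0.076 over 18 pairs). Still, 8 of 12 libraries correlated best with their own number, so whether the numbers mark pairs was not settled. They were not taken as pairs in the main fit. With a replicate block the calls were 7565 for repeat against recovery, 8409 for repeat against vehicle, 855 for repeat against acute and 160 for the difference between the pulses, and 8 and 9 members were called. The lowest count of a member in a library was 503.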
